A study of Mus musculus with 4 samples.

Results

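Mitochondrially encoded transcripts were followed in 4 single-cell libraries of sorted mouse long-term hematopoietic stem cells (LT-HSC). A member was any row of the count tables whose symbol starts with mt-. There were 34 such rows among 26687 gene symbols: 13 mRNA genes, 2 rRNA genes and 19 of the 22 annotated tRNA genes. The libraries listed 31 of them in NPMc+, 30 in Flt3-ITD, 24 in NPMc+/Flt3-ITD and 31 in Mx, and all 34 had a UMI (a counted RNA molecule) in a kept cell of some library.

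The cells came from crushed bone marrow of limbs and sternum of C57BL/6 mice aged 8 to 11 weeks, with 1 library per genotype. The NPMc+ library carries the cytoplasmic mutant of nucleophosmin, the Flt3-ITD library the internal tandem duplication of the Flt3 receptor, the NPMc+/Flt3-ITD library both, and the Mx library is labelled MxCRE and served as the control. The labels do not say whether the mutant mice also carry MxCRE, whether Cre was induced, or how many animals were pooled. Since each genotype has 1 library, no test between genotypes was possible, and each interval is an exact 95% interval that covers counting error only. Comparisons with Mx share that library.

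The mitochondrial genome (mtDNA) is a compact circle that is transcribed from both strands into long precursor RNAs. These are cut, mostly at the tRNAs that lie between the genes, into mRNAs for subunits of respiratory complexes I, III, IV and V, the 2 rRNAs of the mitochondrial ribosome and the tRNAs. Most mitochondrial mRNAs receive short poly(A) tails, which in several genes also complete the stop codon, while tRNAs do not carry such tails. LT-HSC are known for low respiration and a reliance on glycolysis. The libraries were primed from poly(A), so a count here is a count of molecules caught by a poly(T) primer.

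The ends of the following genes are shown because a 3' library reads near them and because several of them recur in the nuclear genome. All were read from GENCODE M21 transcripts on GRCm38 (mm10), 5' to 3', with the encoded bases of the stop codon in capitals. A lone capital T is a stop codon that only the poly(A) tail completes. The mt-Atp6 end lies at chrM:8548-8607, mt-Co2 at chrM:7637-7696, mt-Co3 at chrM:9331-9390, mt-Nd1 at chrM:3648-3707, mt-Nd4 at chrM:11485-11544 and mt-Cytb at chrM:15229-15288, all on the plus strand. The tRNA gene mt-Tc is shown whole, at chrM:5192-5257 on the minus strand. Gm10925 is a nuclear pseudogene, shown at chr1:24613974-24614030 on the minus strand.
mt-Atp6: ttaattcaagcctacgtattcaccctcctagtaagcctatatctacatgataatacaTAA
Gm10925: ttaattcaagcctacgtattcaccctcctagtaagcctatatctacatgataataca
mt-Co2: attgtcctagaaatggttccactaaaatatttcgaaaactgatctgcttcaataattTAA
mt-Co3: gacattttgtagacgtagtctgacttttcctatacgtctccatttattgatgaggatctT
mt-Nd1: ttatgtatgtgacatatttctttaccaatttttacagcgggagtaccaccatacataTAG
mt-Nd4: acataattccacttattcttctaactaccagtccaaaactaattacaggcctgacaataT
mt-Cytb: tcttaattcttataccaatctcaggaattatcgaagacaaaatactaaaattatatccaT
mt-Tc: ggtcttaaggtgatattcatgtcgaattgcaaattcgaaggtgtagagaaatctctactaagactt

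The Gm10925 line ends before the stop codon and otherwise has the letters of mt-Atp6. It belongs to a run of 7 annotated pseudogenes at chr1:24611535-24616197, minus strand, in the order of the mitochondrial genes from chrM:6390 to chrM:11042. Of the 7 copies, 5 had 0 mismatches and 2 had 1 mismatch. The copy of mt-Nd3 (Gm28438) differs by T3C, counted from 1 at the start of mt-Nd3, and the copy of mt-Co1 (Gm29216) by A1066T, counted from the start of mt-Co1. The windows round those bases, with the differing base in capitals, are chrM:9459-9481 (plus strand) and chr1:24613097-24613119 (minus strand) for mt-Nd3 and its copy, and chrM:6390-6413 (plus strand) and chr1:24616165-24616188 (minus strand) for mt-Co1 and its copy.
mt-Nd3: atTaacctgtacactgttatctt
Gm28438: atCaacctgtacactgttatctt
mt-Co1: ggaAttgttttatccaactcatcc
Gm29216: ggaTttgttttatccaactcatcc

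These copies match to within 3 bases of the 3' end of 6 mRNA genes, mt-Co1, mt-Co2, mt-Atp6, mt-Co3, mt-Nd3 and mt-Nd4l, and their values are uncertain for that reason: how reads that match mtDNA and chromosome 1 equally were counted is not given in the sources used here. The chromosome 1 copies themselves held 21 UMIs over all libraries. The largest count of any annotated nuclear copy was 278 UMIs, for Gm13340 on chromosome 2, which is 97.6% identical to mt-Co1, and no copy reached 20 CPM, counts per 1000000 UMIs of a library, anywhere. Strand use in counting is not given either, so reads of genes that overlap on opposite strands, such as mt-Nd5 and mt-Nd6, cannot be told apart. Reads from the 43-base stretch that mt-Atp8 and mt-Atp6 share on the plus strand carry the same limit. That stretch is the end of mt-Atp8, and Gm10925 matches it, since its match starts at base 1 of mt-Atp6. Most of the rest of mt-Atp8 lies between the matched ends of mt-Co2 and mt-Atp6, which are 233 bases apart in mtDNA and on chromosome 1. The value of mt-Atp8 is thus uncertain too, although no copy of it is annotated.

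Of 11407 barcodes, 10621 had at least 1000 UMIs and 500 genes. The filter of at most 10% mt- UMIs removed only 13 of them: 1 in NPMc+, 3 in Flt3-ITD, 8 in NPMc+/Flt3-ITD and 1 in Mx. The 10608 kept cells numbered 2375 in NPMc+ (median depth 9466 UMIs), 2393 in Flt3-ITD (8661 UMIs), 3321 in NPMc+/Flt3-ITD (7323 UMIs) and 2519 in Mx (8094 UMIs). All 15 LT-HSC markers that were looked up, among them Procr, Hlf and Mecom, were detected in each library, and their summed level was 749 to 1832 CPM, lowest in NPMc+/Flt3-ITD and highest in Mx. Barcode sequences found in more than 1 library numbered 148, covering 156 kept cells.

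The kept cells devoted under 1% of their UMIs to mitochondrial genes in every library. The summed mt- level was 5840 CPM in NPMc+ (5810 to 5870), 7577 CPM in Flt3-ITD (7541 to 7614), 8272 CPM in NPMc+/Flt3-ITD (8238 to 8306) and 7331 CPM in Mx (7294 to 7367). NPMc+ was therefore the library with the lowest level, 1.26-fold below Mx (1.25 to 1.26). Its level was below Mx under each of 15 alternative settings. The ratio of Flt3-ITD to Mx was 1.03 (1.03 to 1.04), and it was below 1 in 4 alternatives, among them thinning all cells to 3000 UMIs (log2 ratio -0.0057). The ratio of NPMc+/Flt3-ITD to Mx was 1.13 (1.12 to 1.14), but on the log2 scale it was -0.031 when ribosomal protein and mt- UMIs were left out of the total and -0.026 in female cells. Without the mt- filter the sums were 5848 CPM in NPMc+, 7593 CPM in Flt3-ITD, 8314 CPM in NPMc+/Flt3-ITD and 7340 CPM in Mx.

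The make-up of these UMIs separated the libraries more than their sum did. The mRNAs made up 93.7% of mt- UMIs in NPMc+, 95.4% in Flt3-ITD, 95.7% in NPMc+/Flt3-ITD and 90.2% in Mx. The rRNAs made up 6.13% of them in NPMc+, 4.50% of them in Flt3-ITD and 4.32% of them in NPMc+/Flt3-ITD, against 9.34% of them in Mx. The tRNAs were rare, at 0.137% of mt- UMIs in NPMc+, 0.0847% of those in Flt3-ITD and 0.0152% of those in NPMc+/Flt3-ITD, against 0.447% of those in Mx. All mutant libraries thus had a smaller rRNA and tRNA share than Mx, and NPMc+/Flt3-ITD had the smallest of both.

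**Figure D1:**
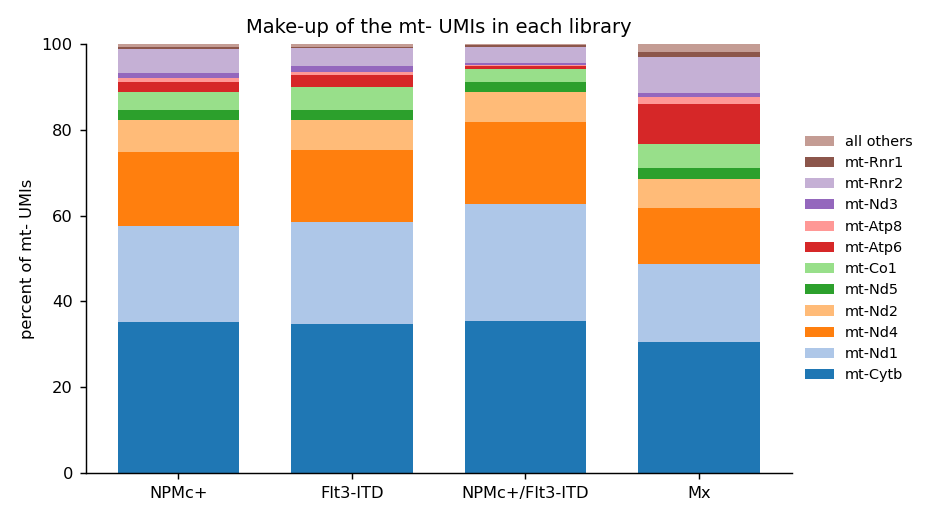
Stacked bars give the percent of each library's mt- UMIs (vertical axis) taken by each gene, for NPMc+, Flt3-ITD, NPMc+/Flt3-ITD and Mx. mt-Atp6 takes 2.45% of the NPMc+ bar, 2.81% of the Flt3-ITD bar and 0.691% of the NPMc+/Flt3-ITD bar, against 9.26% of the Mx bar, while mt-Cytb is the widest segment in all 4 bars.

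Levels of different genes were compared per kilobase of gene length, although a 3' library does not sample in proportion to length. On the CPM per kilobase scale the order in Mx was mt-Cytb (1955), mt-Nd1 (1401), mt-Atp6 (997), mt-Nd4 (684), mt-Atp8 (599), mt-Nd2 (478), mt-Tc (410.2) and mt-Rnr2 (389). In NPMc+/Flt3-ITD mt-Cytb (2567), mt-Nd1 (2342), mt-Nd4 (1158) and mt-Nd2 (548) led, and mt-Atp6 stood at 83.97 CPM per kilobase. The lowest mRNA per kilobase in every library was that of mt-Nd4l, a complex I subunit gene, at 3.49 CPM per kilobase in NPMc+, 9.96 in Flt3-ITD, 1.998 in NPMc+/Flt3-ITD and 9.65 in Mx.

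Of the 34 members, 14 reached 20 CPM in some library and are described with values in each. The other 20, mt-Nd4l, mt-Nd6 and 18 tRNAs, stayed below it everywhere. mt-Nd6, the only mRNA encoded on the minus strand and a complex I subunit gene, stood at 8.66 CPM in NPMc+, 9.01 CPM in Flt3-ITD, 5.97 CPM in NPMc+/Flt3-ITD and 9.12 CPM in Mx. The 18 low tRNAs held 79 UMIs at most each over all cells, and mt-Tt, the threonine tRNA gene, held those 79. At such counts no difference in a low tRNA was read.

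**Figure D2:**
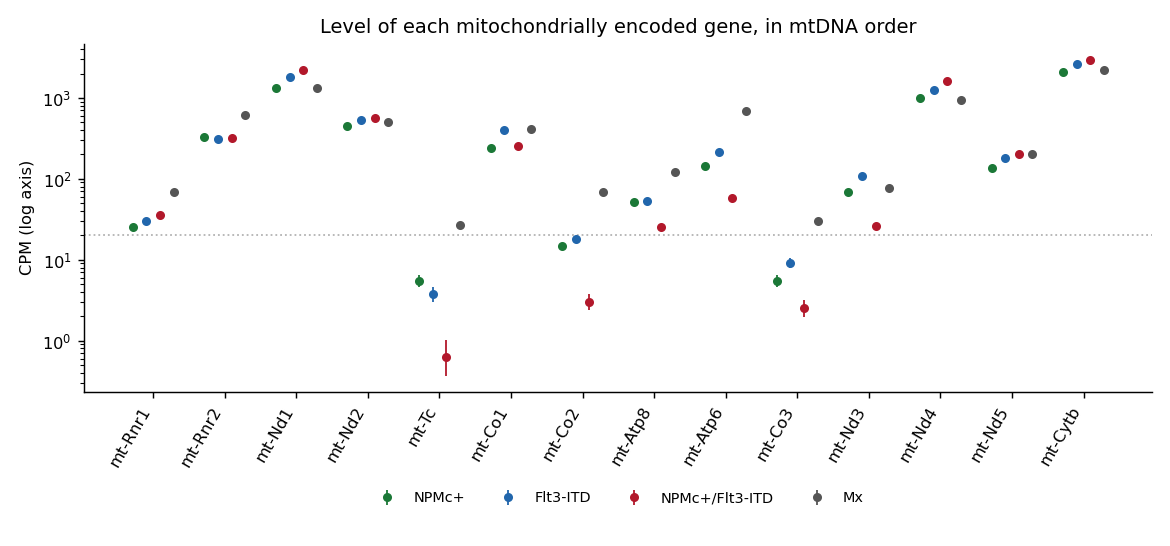
Points give the CPM (log axis) of the 14 genes that reach 20 CPM (dotted line) in any library, in mtDNA order, with exact 95% counting intervals, for NPMc+, Flt3-ITD, NPMc+/Flt3-ITD and Mx from left to right. The Mx point stands highest for mt-Tc, mt-Co2, mt-Atp8, mt-Atp6 and mt-Co3 and for both rRNAs, while the NPMc+/Flt3-ITD point stands highest for mt-Cytb, mt-Nd1 and mt-Nd4.

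The most abundant mRNAs encode complex I and complex III subunits. mt-Cytb, the cytochrome b gene and the only mtDNA gene of complex III, stood at 2061 CPM in NPMc+, 2631 CPM in Flt3-ITD, 2937 CPM in NPMc+/Flt3-ITD and 2237 CPM in Mx. It made up 35.3% of mt- UMIs in NPMc+, 34.7% of those in Flt3-ITD and 35.5% of those in NPMc+/Flt3-ITD, against 30.5% of those in Mx, so the mutant libraries differed by under 1 point among themselves. mt-Nd1, a membrane-arm subunit of complex I, stood at 1307 CPM in NPMc+, 1801 CPM in Flt3-ITD, 2241 CPM in NPMc+/Flt3-ITD and 1341 CPM in Mx. mt-Nd4, another membrane subunit of complex I, stood at 995 CPM in NPMc+, 1266 CPM in Flt3-ITD, 1596 CPM in NPMc+/Flt3-ITD and 942 CPM in Mx.

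mt-Nd1 and mt-Nd4 stood alike. In NPMc+/Flt3-ITD, mt-Nd1 was 1.67-fold (1.65 to 1.70) and mt-Nd4 1.69-fold (1.67 to 1.72) higher than in Mx. Both were higher under all 15 alternatives, but by less than 1.5-fold in female cells (log2 ratios 0.56 for mt-Nd1 and 0.55 for mt-Nd4) and with mt- and ribosomal protein UMIs left out of the total (0.54 for mt-Nd1 and 0.55 for mt-Nd4). In Flt3-ITD over Mx both ratios were 1.34, and in NPMc+ over Mx they were 0.975 for mt-Nd1 and 1.06 for mt-Nd4. Shares of a total are tied to one another, so the shares were also taken among mt- mRNA UMIs without mt-Atp6 and mt-Atp8. On that scale mt-Cytb took 39.0% in NPMc+, 37.8% of those UMIs in Flt3-ITD and 37.5% of those in NPMc+/Flt3-ITD, against 38.5% of those in Mx, so its share was below that of Mx in Flt3-ITD and NPMc+/Flt3-ITD and stayed slightly above it in NPMc+. mt-Nd1 took 24.8% of those UMIs in NPMc+, 25.9% of those in Flt3-ITD and 28.6% of those in NPMc+/Flt3-ITD, against 23.1% of those in Mx. mt-Nd4 took 18.8% of those UMIs in NPMc+, 18.2% of those in Flt3-ITD and 20.4% of those in NPMc+/Flt3-ITD, against 16.2% of those in Mx.

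The complex I genes mt-Nd2 and mt-Nd5 were less abundant. mt-Nd2, a membrane-arm subunit gene, stood at 445 CPM in NPMc+, 534 CPM in Flt3-ITD, 569 CPM in NPMc+/Flt3-ITD and 496 CPM in Mx, within 1.15-fold of Mx in each mutant library. mt-Nd5, the largest complex I gene here, stood at 136 CPM in NPMc+, 181 CPM in Flt3-ITD and 199.9 CPM in NPMc+/Flt3-ITD, against 199.7 CPM in Mx.

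The complex V genes were lower in every mutant library. mt-Atp6, which encodes the proton-channel subunit a of ATP synthase, stood at 143 CPM in NPMc+, 213 CPM in Flt3-ITD and 57.2 CPM in NPMc+/Flt3-ITD, against 679 CPM in Mx. Its level was 4.74-fold lower in NPMc+ (4.57 to 4.92), 3.19-fold lower in Flt3-ITD (3.09 to 3.30) and 11.9-fold lower in NPMc+/Flt3-ITD (11.3 to 12.5). mt-Atp8, a small ATP synthase subunit gene on the same transcript, stood at 51.1 CPM in NPMc+, 53.5 CPM in Flt3-ITD and 25 CPM in NPMc+/Flt3-ITD, against 122 CPM in Mx. It was 2.39-fold lower in NPMc+ (2.24 to 2.56), 2.29-fold lower in Flt3-ITD (2.13 to 2.45) and 4.89-fold lower in NPMc+/Flt3-ITD (4.49 to 5.33), a smaller gap to Mx than that of mt-Atp6 in each. In the few shallow cells with under 3 UMIs of each list of markers of other cell types, the log2 ratio of mt-Atp6 was -0.21 in Flt3-ITD over Mx and -2.84 in NPMc+/Flt3-ITD over Mx, so it was within 1.5-fold in Flt3-ITD over Mx.

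The complex IV genes differed among themselves. mt-Co2, the copper-binding subunit gene of cytochrome c oxidase, stood at 14.7 CPM in NPMc+, 17.9 CPM in Flt3-ITD and 3.04 CPM in NPMc+/Flt3-ITD, against 69.5 CPM in Mx. mt-Co3, a membrane subunit gene, stood at 5.47 CPM in NPMc+, 9.01 CPM in Flt3-ITD and 2.52 CPM in NPMc+/Flt3-ITD, against 30.1 CPM in Mx. Both, and mt-Tc, passed the floor of 20 CPM only through the Mx library, so they had to come out lower. mt-Co2 was 22.9-fold lower in NPMc+/Flt3-ITD (18.3 to 28.9) and mt-Co3 11.9-fold lower (9.28 to 15.6). In Flt3-ITD, mt-Co2 was 3.88-fold lower (3.47 to 4.35), with 394 UMIs in Flt3-ITD and 1456 UMIs in Mx. There mt-Co3 was 3.34-fold lower (2.84 to 3.94), with 198 UMIs in Flt3-ITD and 630 UMIs in Mx. In the few cells with under 3 UMIs of each list of markers of other cell types, both ratios of Flt3-ITD to Mx turned slightly above 1 (log2 0.037 for mt-Co2 and 0.024 for mt-Co3). mt-Co1, the catalytic subunit gene, stood at 237 CPM in NPMc+, 405 CPM in Flt3-ITD and 251 CPM in NPMc+/Flt3-ITD, against 407 CPM in Mx. It was 1.72-fold lower in NPMc+ (1.66 to 1.78) and 1.63-fold lower in NPMc+/Flt3-ITD (1.57 to 1.68), and its ratio of Flt3-ITD to Mx was 0.994 (0.965 to 1.02).

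mt-Nd3, a short complex I gene between mt-Co3 and mt-Nd4l, differed in direction between the mutant libraries. It stood at 69.3 CPM in NPMc+, 107 CPM in Flt3-ITD and 26.1 CPM in NPMc+/Flt3-ITD, against 77.2 CPM in Mx. Its level was 1.11-fold lower in NPMc+ (1.04 to 1.19, with a log2 ratio of 0.085 in the same few cells), 1.38-fold higher in Flt3-ITD (1.30 to 1.48) and 2.96-fold lower in NPMc+/Flt3-ITD (2.71 to 3.24). Its chromosome 1 copy is as close as those of mt-Atp6 and mt-Co2 but for the base shown above.

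Both rRNAs were lower in all mutant libraries. mt-Rnr2, the large-subunit rRNA gene, stood at 333 CPM in NPMc+, 311 CPM in Flt3-ITD and 322 CPM in NPMc+/Flt3-ITD, against 615 CPM in Mx. Its level was 1.85-fold lower in NPMc+ (1.80 to 1.90), 1.98-fold lower in Flt3-ITD (1.92 to 2.04) and 1.91-fold lower in NPMc+/Flt3-ITD (1.86 to 1.97). The mutant libraries stood close to one another in all kept cells, but not in the few cells without markers of other cell types, where the log2 ratio of mt-Rnr2 was -1.07 in NPMc+ over Mx and -0.31 in Flt3-ITD over Mx. mt-Rnr1, the small-subunit rRNA gene, stood at 25.5 CPM in NPMc+, 30.5 CPM in Flt3-ITD and 35.8 CPM in NPMc+/Flt3-ITD, against 69.2 CPM in Mx. It was 2.71-fold lower in NPMc+ (2.47 to 2.98), 2.27-fold lower in Flt3-ITD (2.07 to 2.49) and 1.93-fold lower in NPMc+/Flt3-ITD (1.78 to 2.10). In the same few cells its log2 ratio was -1.19 in NPMc+ over Mx, -0.15 in Flt3-ITD over Mx and -0.30 in NPMc+/Flt3-ITD over Mx. Neither rRNA has an annotated near-identical copy that reaches its 3' end.

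Among tRNAs the cysteine tRNA gene mt-Tc, shown whole above, held most UMIs: 136 of 201 in NPMc+, 82 of 141 in Flt3-ITD, 17 of 34 in NPMc+/Flt3-ITD and 567 of 686 in Mx. It stood at 5.43 CPM in NPMc+, 3.73 CPM in Flt3-ITD and 0.630 CPM in NPMc+/Flt3-ITD, against 27.1 CPM in Mx. The ratio of NPMc+/Flt3-ITD to Mx was 0.0233 (0.0135 to 0.0376). It is encoded on the minus strand, beside mt-Ta, mt-Tn and mt-Ty, tRNA genes of the same strand that held 12 UMIs or fewer each over all libraries.

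Against Mx, NPMc+ had 0 of the 14 members past 1.5-fold on the higher side and 8 past it on the lower side. Of all 6588 genes at the floor in that comparison, 4.37% were that much higher and 8.91% that much lower. In Flt3-ITD over Mx 0 members were higher and 7 lower, beside 4.41% and 6.40% of 6546 genes. In NPMc+/Flt3-ITD over Mx 2 members were higher and 9 lower, beside 14.1% and 9.84% of 6938 genes. At least 2-fold lower were 6 members in each comparison with Mx, beside 2.23% of all genes for NPMc+, 1.74% of them for Flt3-ITD and 5.74% of them for NPMc+/Flt3-ITD. Each of these counts of lower members includes the 3 genes that passed only through Mx.

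The genes behind these counts were largely the same, in comparisons that all divide by the Mx library. mt-Rnr1, mt-Rnr2, mt-Tc, mt-Co2, mt-Atp8, mt-Atp6 and mt-Co3 were at least 1.5-fold lower in all 3 mutant libraries. mt-Co1 joined them in NPMc+ and in NPMc+/Flt3-ITD, and mt-Nd3 in NPMc+/Flt3-ITD. Of these, mt-Tc, mt-Co2 and mt-Co3 passed the floor only through Mx and had to come out lower each time. How many of all genes were lower in all 3 was not counted, so no agreement among the mutant libraries is read from the overlap. In the few cells without markers of other cell types several of the members named as lower were within 1.5-fold of Mx. They were mt-Co1 and mt-Co3 in NPMc+ (log2 ratios -0.28 and -0.41), mt-Rnr1, mt-Rnr2, mt-Co2, mt-Atp6 and mt-Co3 in Flt3-ITD, and mt-Rnr1 and mt-Co1 in NPMc+/Flt3-ITD (log2 ratios -0.30 and -0.22). The 2 higher members were mt-Nd1 and mt-Nd4. The median log2 ratio of the 14 members was -0.83 in NPMc+ over Mx (all genes -0.0055), -0.56 in Flt3-ITD over Mx (all genes -0.060) and -0.94 in NPMc+/Flt3-ITD over Mx (all genes 0.21). These medians include mt-Tc, mt-Co2 and mt-Co3, which had to come out lower. Without these genes the middle member was mt-Nd5 in NPMc+ over Mx (-0.56) and mt-Co1 in Flt3-ITD over Mx (-0.0091). In NPMc+/Flt3-ITD over Mx it was mt-Co1 (-0.70). In Flt3-ITD over Mx that is no lower than the median of all genes. Under TMM scaling the split of all genes turned to 7.77% higher and 5.24% lower in NPMc+ over Mx and 6.22% and 3.45% in Flt3-ITD over Mx, where 1 member was higher. With mt- and ribosomal protein UMIs left out of the total it became 4.10% and 9.57% in Flt3-ITD over Mx and 7.33% and 15.6% in NPMc+/Flt3-ITD over Mx, and in NPMc+/Flt3-ITD over Mx 0 members were higher.

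Comparing NPMc+/Flt3-ITD with each mutant library alone asks what the added allele goes with. Only 11 members reached the floor in these comparisons. Over Flt3-ITD, 0 members were at least 1.5-fold higher and 4 lower, beside 13.7% and 7.35% of 6746 genes. The 4 were mt-Nd3, 4.09-fold lower (3.76 to 4.46), mt-Atp6, 3.72-fold lower (3.51 to 3.95), mt-Atp8, 2.14-fold lower, and mt-Co1, 1.62-fold lower. Over NPMc+, 2 members were higher and 3 lower, beside 14.0% and 7.61% of 6770 genes. mt-Nd1 was 1.71-fold and mt-Nd4 1.60-fold higher there, and mt-Nd3 2.66-fold, mt-Atp6 2.51-fold and mt-Atp8 2.04-fold lower. In female cells the log2 ratios over NPMc+ were 0.51 for mt-Nd1 and 0.45 for mt-Nd4, within 1.5-fold.

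In these comparisons the large-subunit rRNA stood close to 1. mt-Rnr2 in NPMc+/Flt3-ITD was 1.04-fold its level in Flt3-ITD (1.002 to 1.07) and 0.967-fold its level in NPMc+ (0.938 to 0.997). mt-Rnr1 in NPMc+/Flt3-ITD was 1.18-fold its level in Flt3-ITD (1.06 to 1.30) and 1.40-fold its level in NPMc+ (1.27 to 1.55). The median log2 ratio of the 11 members was 0.093 over Flt3-ITD and 0.36 over NPMc+, beside medians of all genes of 0.28 over Flt3-ITD and 0.22 over NPMc+. Under TMM scaling the split of all genes became 7.29% higher and 9.83% lower over Flt3-ITD, and 8.44% and 10.2% over NPMc+. With the ribosomal protein and mt- UMIs left out of the total it became 8.12% and 9.71% over Flt3-ITD and 8.96% and 9.92% over NPMc+. In both settings 1 member was higher over NPMc+.

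Length and the chromosome 1 copies both moved with the pattern and overlap among the members. The 6 genes at the floor under 800 bases are mt-Tc (66), mt-Atp8 (204), mt-Nd3 (348), mt-Atp6 (681), mt-Co2 (684) and mt-Co3 (784), and they were the 6 that were at least 2-fold lower in NPMc+/Flt3-ITD than in Mx. Of these, mt-Tc, mt-Co2 and mt-Co3 passed the floor only through Mx and had to come out lower, which leaves mt-Atp8, mt-Nd3 and mt-Atp6. The 8 longer members, from 955 bases up, had log2 ratios from -0.95 to 0.76 in that comparison. Nuclear genes under 800 bases, 279 of them by their longest annotated transcript, had a median log2 ratio of -0.88 in NPMc+/Flt3-ITD over Mx, and 54.1% of them were at least 1.5-fold lower. The 935 genes from 800 to 1600 bases had a median of 0.29, with 11.8% lower.

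The medians of these length classes lay closer together in the other mutant libraries, where short genes were more often past 1.5-fold in both directions. In NPMc+ over Mx the median log2 ratio was 0.019 for nuclear genes under 800 bases and 0.11 for those from 800 to 1600 bases, with 19.4% of the shorter and 5.54% of the longer class at least 1.5-fold lower. In Flt3-ITD over Mx it was -0.019 for the shorter and -0.0043 for the longer class, with 13.8% of the shorter and 3.803% of the longer class lower. At least 1.5-fold higher were 11.7% of the shorter and 7.21% of the longer class in NPMc+ over Mx. In Flt3-ITD over Mx 19.7% of the shorter and 4.81% of the longer class were that much higher. For NPMc+/Flt3-ITD the median of the short class was -0.75 over Flt3-ITD and -0.74 over NPMc+. In NPMc+ and Flt3-ITD over Mx, mt-Atp8 and mt-Atp6, both short, were more than 2-fold lower. mt-Atp6 has a copy. mt-Atp8 has no annotated copy of its own, but its last 43 bases are matched within Gm10925, so it does not set length apart from the copies. mt-Nd3, also short and with a copy, was within 1.5-fold. mt-Tc, short and without a copy, was more than 2-fold lower too, but it passed the floor only through Mx and had to come out lower. The length classes were chosen after the ratios were seen, and the part of length or of the copies in the results was not tested.

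**Figure D3:**
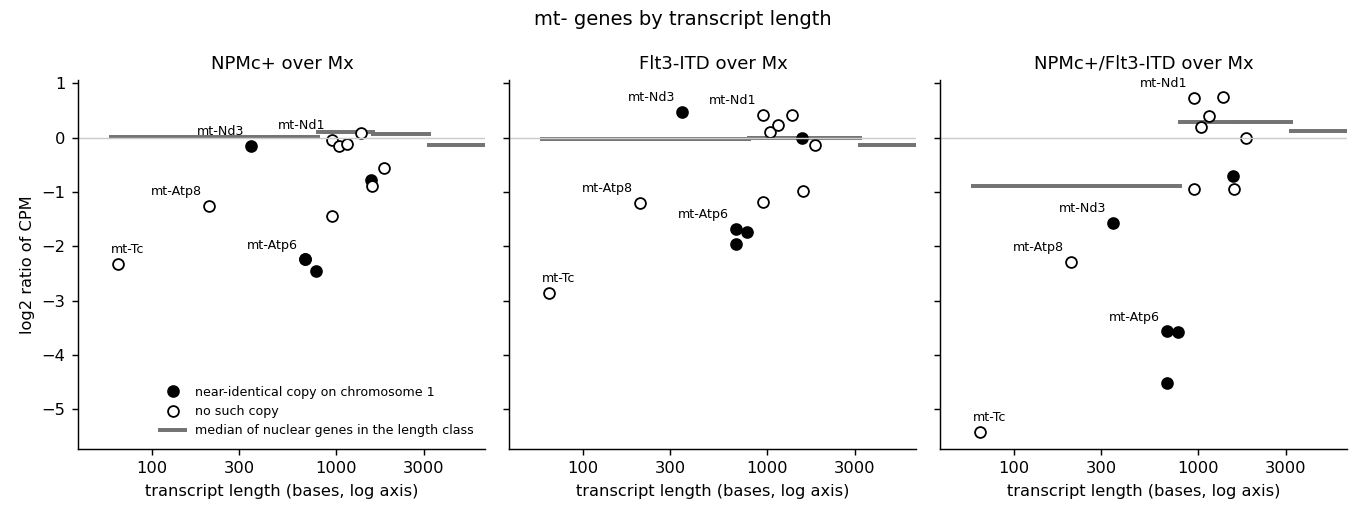
The log2 ratio of CPM (vertical axis) of the 14 members against transcript length in bases (log axis), for NPMc+ over Mx, Flt3-ITD over Mx and NPMc+/Flt3-ITD over Mx. Filled points have an annotated near-identical chromosome 1 copy at their 3' end, and grey lines are the medians of nuclear genes in each length class. mt-Atp8 is drawn open, although its end overlaps the copied part of mt-Atp6. The grey line of the shortest class lies at -0.88 in the panel of NPMc+/Flt3-ITD over Mx and near 0 in the other panels.

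Summed over the 6 genes with an annotated near-identical copy at the 3' end, the level was 471 CPM in NPMc+, 754 CPM in Flt3-ITD and 340.1 CPM in NPMc+/Flt3-ITD, against 1266 CPM in Mx. They made up 8.06% of mt- UMIs in NPMc+, 9.96% of those in Flt3-ITD and 4.11% of those in NPMc+/Flt3-ITD, against 17.3% of those in Mx. The other 7 mRNAs, mt-Atp8 among them, summed to 5003 CPM in NPMc+, 6475 CPM in Flt3-ITD and 7573 CPM in NPMc+/Flt3-ITD, against 5348 CPM in Mx. Their ratio to Mx was 0.936 (0.928 to 0.943) for NPMc+, 1.21 (1.20 to 1.22) for Flt3-ITD and 1.42 (1.41 to 1.43) for NPMc+/Flt3-ITD. Of the gap between NPMc+ and Mx in the summed mt- level, most therefore lay in the genes with an annotated copy and in the rRNAs. Adding the UMIs of annotated nuclear copies to the gene they copy moved no summed ratio and no mt-Atp6 share beyond its counting interval. It could hardly do so, since those copies held 362 UMIs beside 689580 mt- UMIs. Reads that were lost in counting because they match both places cannot be seen this way.

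Within a library the mt-Atp6 share stayed apart from that of Mx in every group of cells. Over 30 overlapping subsets of 24 or more cells, drawn by depth, sex, mt- percent and marker UMIs, mt-Atp6 made up 2.28 to 2.64% of mt- UMIs in NPMc+, 2.46 to 3.65% in Flt3-ITD and 0.567 to 0.828% in NPMc+/Flt3-ITD, against 7.99 to 11.0% in Mx. The range of Mx did not overlap that of any mutant library. These subsets are parts of the same libraries whose pooled shares differed, so this is not separate support. Such overlap was not counted over all genes. Other shares also varied over the same subsets. mt-Rnr2 made up 3.69 to 6.08% of mt- UMIs in NPMc+, 2.97 to 4.70% in Flt3-ITD and 2.78 to 4.61% in NPMc+/Flt3-ITD, against 7.69 to 9.12% in Mx. mt-Nd1 made up 19.9 to 25.5% in NPMc+, 22.0 to 25.8% in Flt3-ITD and 25.4 to 31.5% in NPMc+/Flt3-ITD, against 16.9 to 20.2% in Mx. For mt-Nd3 the range of Mx, 0.932 to 1.44%, overlapped those of NPMc+ (0.987 to 1.37%) and Flt3-ITD (1.143 to 1.805%). It did not overlap that of NPMc+/Flt3-ITD (0.279 to 0.409%). In single cells with at least 30 mt- UMIs, the median mt-Atp6 share was 2.17% over 1969 cells of NPMc+, 2.60% over 2253 cells of Flt3-ITD and 0 over 2881 cells of NPMc+/Flt3-ITD, against 9.09% over 2183 cells of Mx. Of these cells, 21.2% of those in NPMc+, 17.6% of those in Flt3-ITD and 60.7% of those in NPMc+/Flt3-ITD held no mt-Atp6 UMI, against 0.596% of those in Mx. The low share was therefore spread over most cells of a mutant library.

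Male and female cells, called by Y-linked UMIs or Xist, come from different mice that share a library. mt-Atp6 stood at 2.46% in male and 2.46% in female cells of NPMc+, at 2.90% and 2.67% in Flt3-ITD, at 0.699% and 0.567% in NPMc+/Flt3-ITD, and at 9.24% and 9.25% in Mx. The largest male-female gap of any gene was that of mt-Cytb, at 0.863 points in NPMc+, 1.85 points in Flt3-ITD, 3.94 points in NPMc+/Flt3-ITD and 1.82 points in Mx, with only 179 female cells in NPMc+/Flt3-ITD.

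**Figure D4:**
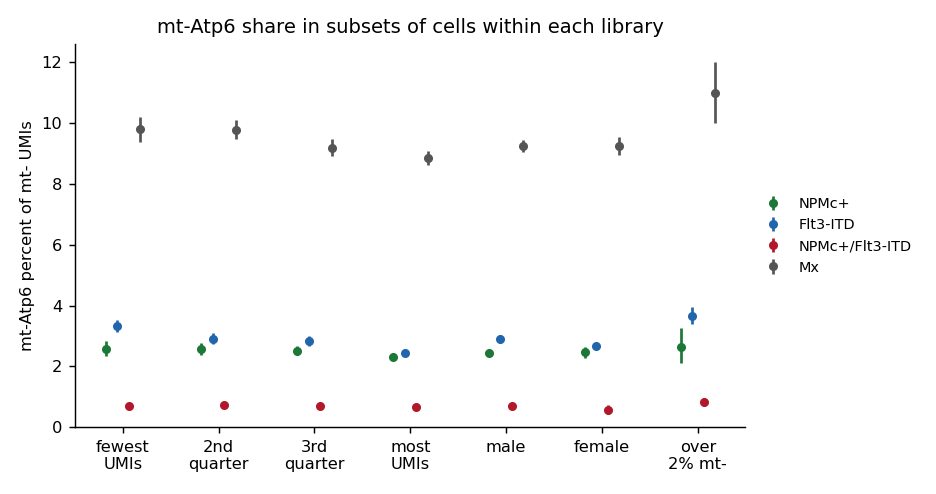
The mt-Atp6 percent of mt- UMIs (vertical axis, from 0) in 4 equal depth groups of cells, male cells, female cells and cells over 2% mt-, with exact 95% counting intervals, for NPMc+, Flt3-ITD, NPMc+/Flt3-ITD and Mx. In each library the point of the cells over 2% mt- is the highest, and the Mx points lie at 8.84% or above.

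Markers of other cell types differed between the libraries. Summed megakaryocyte markers were at 1073 CPM in NPMc+, 283 CPM in Flt3-ITD and 246 CPM in NPMc+/Flt3-ITD, against 305 CPM in Mx, with 9 or 10 of 10 detected and only Gp6 at 0, in all but Flt3-ITD. B cell markers were at 1395 CPM in NPMc+, 84.3 CPM in Flt3-ITD and 199.3 CPM in NPMc+/Flt3-ITD, against 48.8 CPM in Mx. Of 11 B cell markers, 10 were detected in NPMc+, 8 in Flt3-ITD, 10 in NPMc+/Flt3-ITD and 7 in Mx, with Pax5 at 0 throughout and Ms4a1 and Ighd at 0 in Flt3-ITD and Mx. T or NK markers, 12 of 12 detected throughout, were at 428 CPM in NPMc+, 297 CPM in Flt3-ITD and 1141 CPM in NPMc+/Flt3-ITD, against 164 CPM in Mx. Mast or basophil markers, 5 or 6 of 6 detected, were at 111 CPM in NPMc+, 51.0 CPM in Flt3-ITD and 657 CPM in NPMc+/Flt3-ITD, against 19 CPM in Mx. Markers of multipotent or lymphoid progenitors, 9 of 9 detected throughout, were at 482 CPM in NPMc+, 786 CPM in Flt3-ITD and 1865 CPM in NPMc+/Flt3-ITD, against 535 CPM in Mx. G2/M genes, which mark dividing cells, 20 of 20 detected throughout, were at 694 CPM in NPMc+, 603 CPM in Flt3-ITD and 609 CPM in NPMc+/Flt3-ITD, against 407 CPM in Mx. The lists of mature cell types not yet named spanned 877 to 1582 CPM (erythroid), 620.1 to 736 CPM (granulocyte), 369 to 444 CPM (monocyte, macrophage or dendritic) and 60.03 to 129 CPM (endothelial or stromal) over the libraries. Cells with a few such UMIs need not be of these types, since free RNA in the droplets can also give them.

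The mt-Atp6 share in cells with and without these markers was close, while some other shares differed more. In NPMc+, mt-Atp6 took 2.39% of mt- UMIs in the 1450 cells with at least 3 megakaryocyte UMIs and 2.61% in the other 925 cells. mt-Nd1 took 23.4% with and 19.9% without those megakaryocyte UMIs, and mt-Co1 3.73% with and 4.92% without. For mt-Atp6 the values were 2.35% and 2.60% for B cell UMIs in NPMc+. In NPMc+/Flt3-ITD, mt-Atp6 took 0.681% in the 2521 cells with at least 3 T or NK UMIs and 0.732% in the other 800 cells, and 0.673% and 0.702% with and without mast or basophil UMIs. mt-Rnr2 took 4.61% with and 3.49% without mast or basophil UMIs there. Immediate-early and dissociation stress genes, 22 of 22 detected in each library, summed to 13630 CPM in NPMc+, 22545 CPM in Flt3-ITD and 15001 CPM in NPMc+/Flt3-ITD, against 6272 CPM in Mx. The part of these genes and markers in the mt- levels was not tested.

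Leaving out every cell with at least 3 UMIs of any of these lists of other cell types kept only 74 cells of NPMc+, 143 of Flt3-ITD, 124 of NPMc+/Flt3-ITD and 96 of Mx. Their median depth was 2202 UMIs in NPMc+, 1930 UMIs in Flt3-ITD, 2106 UMIs in NPMc+/Flt3-ITD and 2210 UMIs in Mx, far below that of all kept cells. Among them the summed mt- log2 ratio was -0.14 in NPMc+ over Mx, 1.25 in Flt3-ITD over Mx and 0.94 in NPMc+/Flt3-ITD over Mx. mt-Atp6 still took 2.33% of their mt- UMIs in NPMc+, 3.67% of those in Flt3-ITD and 0.738% of those in NPMc+/Flt3-ITD, against 10.1% of those in Mx. The total thus turned on which cells were counted, whereas the order of mt-Atp6 shares was as in all kept cells.

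The share of a single cell's UMIs that was mitochondrial had medians of 0.567% in NPMc+, 0.692% in Flt3-ITD, 0.771% in NPMc+/Flt3-ITD and 0.726% in Mx. The 95th percentile was 0.943% for NPMc+, 3.47% for Flt3-ITD, 2.14% for NPMc+/Flt3-ITD and 1.20% for Mx. Cells over 2% mt- numbered 41 in NPMc+ (1.73%, 1.24 to 2.34), 204 in Flt3-ITD (8.53%, 7.44 to 9.72) and 182 in NPMc+/Flt3-ITD (5.48%, 4.73 to 6.31), against 60 in Mx (2.38%, 1.82 to 3.06). Cells near that limit, between 1.5% and 2.5% mt-, numbered 23 in NPMc+, 68 in Flt3-ITD, 83 in NPMc+/Flt3-ITD and 42 in Mx. Cells over 2% mt- were shallow, with a median depth of 1797 UMIs in NPMc+, 2056 UMIs in Flt3-ITD, 2237 UMIs in NPMc+/Flt3-ITD and 1706 UMIs in Mx, against 7606 to 9580 UMIs for the remaining cells of the 4 libraries.

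Cells over 2% mt- had a larger mt-Atp6 share than all kept cells of their library, a smaller mt-Rnr2 share and a larger Malat1 level. mt-Atp6 took 2.64% of their mt- UMIs in NPMc+ (2.45% in all kept cells) and 3.65% of those in Flt3-ITD (2.81% in all kept cells). It took 0.828% of those in NPMc+/Flt3-ITD (0.691% in all kept cells), against 11.0% of those in Mx (9.26% in all kept cells). mt-Rnr2 took 3.69% of their mt- UMIs in NPMc+, 2.97% of those in Flt3-ITD and 2.78% of those in NPMc+/Flt3-ITD, against 7.69% of those in Mx. Malat1, a nuclear-retained RNA, stood at 43616 CPM in these cells of NPMc+, where it was at 13471 CPM in the other cells. The cells over 2% and the other cells had 48184 CPM and 14091 CPM in Flt3-ITD, 22837 CPM and 11319 CPM in NPMc+/Flt3-ITD, and 50071 CPM and 14574 CPM in Mx. Without these cells the log2 ratio of the summed mt- level was -0.056 in Flt3-ITD over Mx, against 0.048 with them.

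**Figure D5:**
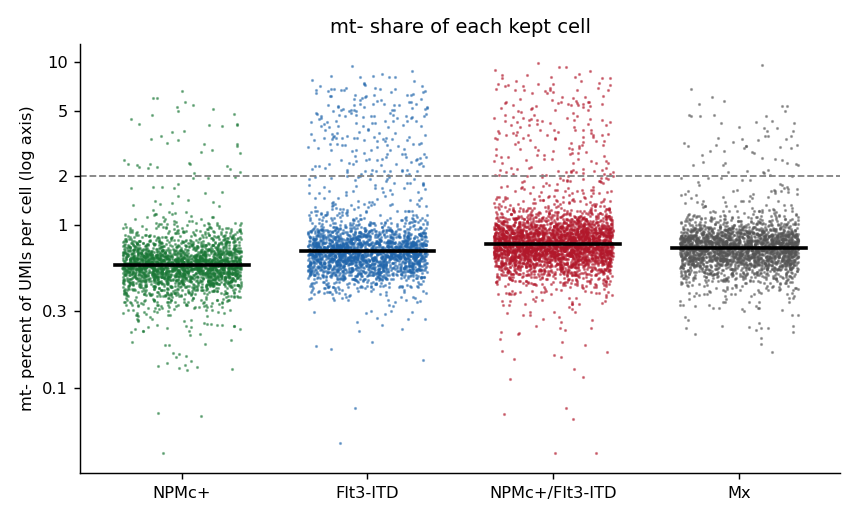
Each point is a kept cell, with its mt- percent of UMIs on a log axis, for NPMc+, Flt3-ITD, NPMc+/Flt3-ITD and Mx. Black lines are medians, the dashed line marks 2%, and the 3 cells without an mt- UMI are drawn at the bottom of the axis. Flt3-ITD and NPMc+/Flt3-ITD have the most cells above the dashed line.

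Nuclear genes that make or keep mitochondrial RNA are set beside the members here. Of 23 genes for mtDNA replication and transcription, 12 reached the floor in NPMc+ over Mx, 12 in Flt3-ITD over Mx and 13 in NPMc+/Flt3-ITD over Mx. Of those, 0 were 1.5-fold higher or lower in NPMc+, 1 was lower in Flt3-ITD (Tk2, the mitochondrial thymidine kinase gene, 16.1 CPM in Flt3-ITD and 24.6 CPM in Mx) and 1 was higher in NPMc+/Flt3-ITD (Tefm, the elongation factor gene, 32.8 CPM in NPMc+/Flt3-ITD and 19.5 CPM in Mx). Lists this short hold about as few such genes at the shares of all genes, 4.37% higher and 8.91% lower for NPMc+, 4.41% and 6.40% for Flt3-ITD, and 14.1% and 9.84% for NPMc+/Flt3-ITD over Mx, so nothing about the list is read from these counts. Tfam, which packages mtDNA and starts its transcription, stood at 69.7 CPM in NPMc+, 65.4 CPM in Flt3-ITD and 84.1 CPM in NPMc+/Flt3-ITD, against 69.1 CPM in Mx. Polrmt, the mitochondrial RNA polymerase gene, was below the floor, at 11.7 to 16.0 CPM.

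Of 39 genes for mitochondrial RNA processing and stability, 21 reached the floor in NPMc+ over Mx, 21 in Flt3-ITD over Mx and 23 in NPMc+/Flt3-ITD over Mx. NPMc+ had 1 higher and 0 lower, Flt3-ITD 0 higher and 1 lower, and NPMc+/Flt3-ITD 2 higher and 1 lower, again counts from which nothing about the list is read. Rexo2, an oligoribonuclease gene, stood at 159 CPM in NPMc+ and 169.5 CPM in NPMc+/Flt3-ITD, against 98.9 CPM in Mx. Ngrn, a gene needed for the large mitochondrial rRNA, stood at 30.5 CPM in Flt3-ITD, against 47.4 CPM in Mx. Slirp, the partner of Lrpprc in holding mitochondrial mRNAs stable, stood at 103 CPM in NPMc+, 111 CPM in Flt3-ITD and 47.5 CPM in NPMc+/Flt3-ITD, against 117 CPM in Mx. Lrpprc itself stood at 21.1 CPM in NPMc+, 18.4 CPM in Flt3-ITD and 25.2 CPM in NPMc+/Flt3-ITD, against 20.6 CPM in Mx. Of 25 genes for mitochondrial biogenesis and mitophagy, 17 reached the floor in each comparison with Mx. NPMc+ had 0 higher and 2 lower, the fusion gene Opa1 and the fission gene Dnm1l, Flt3-ITD had 0 in either direction, and NPMc+/Flt3-ITD had 1 higher, the autophagy receptor gene Sqstm1, and 1 lower, Dnm1l. Of all genes, 4.37% were higher and 8.91% lower for NPMc+, 4.41% and 6.40% for Flt3-ITD, and 14.1% and 9.84% for NPMc+/Flt3-ITD. Nothing about this list is read from its counts either.

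The nuclear subunits of complexes I, III, IV and V differed little in NPMc+ and Flt3-ITD. Of 75 at the floor, 0 were 1.5-fold higher and 1 lower in NPMc+ than in Mx, and 1 was higher and 0 lower in Flt3-ITD. The shares of all genes in those comparisons were 4.37% higher and 8.91% lower for NPMc+, and 4.41% and 6.40% for Flt3-ITD. In NPMc+/Flt3-ITD over Mx 2 were higher and 36 lower, beside 14.1% higher and 9.84% lower of all genes, and the median log2 ratio was -0.49, where that of all genes was 0.21. The lower count was 36 under TMM and 38 without ribosomal protein UMIs in the total. Ndufb4, a complex I subunit gene, stood at 12.1 CPM in NPMc+/Flt3-ITD, against 107 CPM in Mx, and Atp5l, a complex V subunit gene, at 64.3 CPM in NPMc+/Flt3-ITD, against 330.3 CPM in Mx. How far these values go with the lower level of short transcripts in that library was not tested.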

How the data were processed

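The deposited tables are raw UMI counts per gene and barcode, made by the authors with STARsolo in STAR 2.7.0c on mm10 from 10x Single Cell 3' v2 libraries, per the submitters' processing notes and the labels. Filtering of barcodes, strand setting and treatment of multi-mapping reads are not given in the sources used here. Each genotype has 1 library. Barcodes with at least 1000 UMIs, 500 genes and at most 10% mt- UMIs were kept, 20943905 to 26965367 UMIs per library. The 786 barcodes below the UMI or gene minimum were used only as a check. No doublet caller was run, and leaving out the 5% of cells with the most UMIs was an alternative.

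UMIs were summed over kept cells and divided by the library total (CPM). Comparisons took the genes that reached 20 CPM in 1 of their libraries at least, and counted differences of 1.5-fold and 2-fold or more. A count of 0 was set to 3 counts in ratios over all genes. Intervals on shares and ratios are exact (Clopper-Pearson) at 95%. UMI counts limit precision, and intervals and floors cover counting error only. Cells are not replicates, so no p-value was computed.

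Nuclear copies were found with blastn 2.17.0 between GENCODE M21 mt- transcripts and nuclear transcripts (at least 100 bases and 85% identity; near-identical means at least 99%), so only annotated copies are covered. Of 26687 symbols, 25415 (95.2%) matched that annotation, and 99.2% of genes at the floor had a transcript length. Cells with UMIs of Y-linked genes (Uty, Kdm5d, Ddx3y, Eif2s3y) but not Xist were called male, and cells with Xist alone female. TMM factors came from edgeR 4.0.16 in R 4.3.3. The ratio was tested on simulated data.

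Every mt- gene with a UMI was described, those at 20 CPM with values, and from each nuclear list the genes furthest from no difference plus Tfam, Polrmt, Lrpprc, Slirp and Malat1. The members, lists, markers and settings were chosen with earlier results of these data known. Tried were other cell filters, scalings, floors, sexes, thinning to 3000 UMIs and 1 setting chosen after seeing the data, without cells over 2% mt-.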

Additional observations from a re-analysis of the deposited data

Results flagged for a closer look

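Some mt- values stood on one side of the comparison library when an allele came alone, over Mx, and on the other side when it was added to the other allele. Each compares 1 library with 1 library, and the difference was not tested. For the NPMc+ allele the summed mt- log2 ratio was 0.13 when added to Flt3-ITD and -0.33 alone, a difference of 0.45. The same difference for that allele was 1.67 for mt-Rnr1, 0.94 for mt-Rnr2, 0.35 for mt-Nd1, 0.25 for mt-Nd2, 0.70 for mt-Nd5 and 0.28 for mt-Cytb, each lower alone and higher when added. The direction when added to Flt3-ITD was not stable: of 15 alternatives, 10 kept it for the sum, 10 for mt-Nd5, 11 for mt-Rnr2 and 11 for mt-Nd2. The median log2 ratio of all genes in NPMc+/Flt3-ITD over Flt3-ITD was 0.28, above that of the sum and of each of these genes but mt-Nd1 (0.32). For the Flt3-ITD allele the difference is the same number by construction, so it is not a second observation. With that allele too, mt-Rnr1 (1.67) and mt-Nd5 (0.70) were lower alone and higher when added to NPMc+. For mt-Nd3 the difference was -1.88, since Flt3-ITD over Mx was 0.47 and NPMc+/Flt3-ITD over NPMc+ was -1.41 on the log2 scale.

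Summed over their UMIs, the barcodes left out for few UMIs or genes held a larger mt- share in the mutant libraries than in Mx. It was 5.68% in 96 barcodes of NPMc+, 6.17% in 281 barcodes of Flt3-ITD and 4.68% in 203 barcodes of NPMc+/Flt3-ITD, against 2.78% in 206 barcodes of Mx. mt-Atp6 took 2.17%, 3.34% and 0.910% of their mt- UMIs in those mutant libraries, against 8.61% in Mx. A summed share need not be that of a typical barcode. In the 96 barcodes of NPMc+ the median mt- share was 0.881%, at a median depth of 187 UMIs.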

How the results depend on the processing

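No paired analysis was possible because each genotype has 1 library, which also leaves no replicate to leave out. In all 15 alternative settings that gave a value, the summed mt- level of NPMc+ was below that of Mx, and mt-Atp6 was lower in each mutant library than in Mx. Of the recomputed summed ratios, counts of members and mt-Atp6 shares, 229 stayed within their counting interval, or within 1.5 times for a count, and 76 did not. Of the recomputed ratios of single genes, 716 stayed within their counting interval, 329 did not and 2 changed sign from a called value. Log2 ratios of the summed mt- level are given in a fixed order: NPMc+ over Mx, Flt3-ITD over Mx, NPMc+/Flt3-ITD over Mx, NPMc+/Flt3-ITD over Flt3-ITD, and NPMc+/Flt3-ITD over NPMc+. As reported they were -0.33, 0.048, 0.17, 0.13 and 0.50. With at most 5% mt- UMIs per cell they were -0.33, -0.00058, 0.13, 0.13 and 0.47. With at least 3000 UMIs and 1500 genes they were -0.32, -0.030, 0.14, 0.17 and 0.46, and thinned to 3000 UMIs -0.32, -0.0057, 0.16, 0.17 and 0.49. As a mean over cells they were -0.34, 0.33, 0.28, -0.049 and 0.63. Under TMM they were -0.19, 0.19, 0.15, -0.045 and 0.33, and with mt- and ribosomal protein UMIs left out of the total -0.37, 0.00084, -0.031, -0.032 and 0.34. Male cells gave -0.32, 0.059, 0.17, 0.11 and 0.49, and female cells -0.31, 0.010, -0.026, -0.036 and 0.28. Without cells that bear 3 or more marker UMIs of another cell type they were -0.14, 1.25, 0.94, -0.31 and 1.07, from 74 to 143 cells per library. Without the 5% of cells with the most UMIs they were -0.34, 0.053, 0.18, 0.13 and 0.52, and without cells over 2% mt-, a setting chosen after seeing the data, -0.33, -0.056, 0.10, 0.16 and 0.43.

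Members at least 1.5-fold higher numbered 3 (mean over cells), 1 (TMM) and 7 (without marker-bearing cells) in Flt3-ITD over Mx. In NPMc+/Flt3-ITD over Mx they numbered 0 without ribosomal protein UMIs, 0 in female cells and 5 without marker-bearing cells. Over NPMc+ they numbered 1 under TMM, 1 without ribosomal protein UMIs, 0 in female cells and 5 without marker-bearing cells. Members at least 1.5-fold lower, with no floor, numbered 18, 14, 21, 16 and 13 in the fixed order. Beside them, 23.4%, 20.5%, 23.4%, 17.5% and 16.4% of all genes were that much lower. These counts include low tRNAs with a few UMIs, in which no difference was read. With a floor of 5 CPM the lower members numbered 7 over Flt3-ITD and 6 over NPMc+, beside 9.10% and 8.81% of all genes. Without marker-bearing cells they numbered 2 in Flt3-ITD over Mx, and 7 over Flt3-ITD and 5 over NPMc+ in NPMc+/Flt3-ITD. The mt-Atp6 share of Flt3-ITD was 3.11% as a mean over cells (Mx 9.54%), 2.90% in male and 2.67% in female cells and 2.71% without cells over 2% mt-. That of NPMc+/Flt3-ITD was 0.567% in female cells. Without marker-bearing cells it was 2.33% for NPMc+, 3.67% for Flt3-ITD, 0.738% for NPMc+/Flt3-ITD and 10.1% for Mx. There mt-Co2 and mt-Co3 in Flt3-ITD over Mx turned to log2 ratios of 0.037 and 0.024.

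The median log2 ratio of all genes shifted under TMM by 0.15 in NPMc+ and Flt3-ITD over Mx, and by -0.18 for NPMc+/Flt3-ITD over either mutant library. Leaving out ribosomal protein UMIs shifted it by -0.24 for NPMc+/Flt3-ITD over Mx and by -0.17 over either mutant library. The causes were not tested. Depth limits the low tRNAs, mt-Nd4l and mt-Nd6.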
